A study of Danio rerio with 18 samples.

Results

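The brain of opn4 dko zebrafish was compared along its length, as 3 libraries of the anterior brain against 3 libraries of the posterior brain. These are 6 of the 18 libraries of the series, and they were chosen by tissue and genotype label alone, not by any measured value. The fish were of the Tubingen strain and about 1.5 years old, and they carried small frameshift deletions in opn4.1 and in opn4xb, 2 of the 5 zebrafish melanopsin genes, so that both brain parts share both deletions. Brains of wild-type Tubingen fish as old as these gave 6 further libraries, which served as the background. Each library was a pool of the same brain part from 3 fish, kept under blue light in a light-dark cycle and sampled in the earlier part of the light phase. The cut left the telencephalon, the pineal gland and some of the epithalamus, thalamus and posterior tuberculum in the anterior part, without the olfactory bulbs. The posterior part held midbrain, hindbrain, cerebellum, the whole hypothalamus, the pretectum, the habenula and the rest of the thalamus and posterior tuberculum, without the pituitary. Whether anterior and posterior pools with the same replicate number came from the same fish is not stated.

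The pineal gland of fish is itself a light sensor. Its photoreceptor cells use the same phototransduction proteins as the retina, namely an opsin, transducin, phosphodiesterase 6 and a cyclic nucleotide gated channel. Arrestin and opsin kinase end the response, and recoverin holds back that kinase. The cells make melatonin from serotonin with the enzymes AANAT and ASMT. The transcription factors Crx and Otx5 drive these genes. Elsewhere the adult brain keeps the transcription factors that patterned it in the embryo, such as Emx and Tbr1 in the telencephalon, Irx factors in the thalamus, engrailed and Pax7 in the midbrain and Hox factors in the hindbrain, so that each part can be recognised from its RNA.

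The 6 libraries held 3404500 to 6946549 counts, so that 3 counts corresponded to 0.434 to 0.850 CPM (counts scaled to a common library size, with sizes normalised by TMM over the 12 brain libraries). Of 15779 genes tested with edgeR's quasi-likelihood test, 4795 differed between the brain parts at a Benjamini-Hochberg adjusted p (FDR) below 0.05. They made up 30.4% of the genes tested, with 2477 (15.7%) higher in the anterior and 2318 (14.7%) higher in the posterior brain. The anterior and posterior shares are the background for the list counts below. In such bulk tissue, fewer cells of a type and less RNA per cell cannot be told apart. A gene read in 1 part alone was tested only through that part, so the read filter fixed its direction. In wild-type brains 4202 of 15399 tested genes (27.3%) differed. A log2 difference is anterior minus posterior throughout, with its SE, and its median over all tested genes was -0.004. The CPM values of the 3 anterior and 3 posterior libraries did not overlap in 44.0% of the tested genes. Replicate 1 of both parts was sequenced in one lane, whereas replicates 2 and 3 of the anterior brain shared a lane and those of the posterior brain another. Region and lane can thus be separated only through replicate 1, and a fit of the 12 brain libraries with lane as a term, added after seeing the data, called 2742 of 16848 genes (16.3%), 1446 with a higher anterior level (8.58%) and 1296 with a higher posterior level (7.69%). Gene symbols in capitals are those of the human orthologue, as the identifier table gives them, and an Ensembl identifier is added where several zebrafish genes carry the same symbol.

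Markers of pituitary, lens, muscle, skin and bone had few reads in both parts. Listed olfactory genes summed to 139.3 to 150.2 CPM in the anterior and 86.23 to 100.3 CPM in the posterior libraries. For listed retina genes the sums were 179.7 to 186.8 against 124 to 153.5 CPM. Of these 15 genes 7 had 0 counts in all 6 libraries and 2 were tested. The tested ones were BHLHE23, higher in the anterior brain, and POU4F2, higher in the posterior brain and also a tectal factor. Pigment genes summed to 59.57 to 220.1 against 14.3 to 25.49 CPM. Of 12 pituitary genes, 1 had enough reads to be tested, and this was POMC, which is also made in the hypothalamus. None of 15 lens genes could be tested, the rod and cone opsins had at most 10 counts in any of the 6 libraries, and 2 of 18 muscle, skin and bone genes were tested and did not pass. Blood and meningeal transcripts were present. Summed haemoglobin and other red cell reads were 78.6 to 112 CPM in the anterior and 256 to 410 CPM in the posterior brain, and epd, an ependymin of the meninges, was 1.37-fold higher in the posterior brain (log2 difference -0.46 ± 0.16, adjusted p = 0.042). The epd call was lost when anterior replicate 2, posterior replicate 2 or posterior replicate 3 was left out (adjusted p up to 0.196) and with lane as a term (adjusted p = 0.416).

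Reads of both deleted melanopsin genes were found at a low level, and only opn4.1 had enough to be tested. The transcript of opn4.1 had 19, 16 and 19 counts in the anterior libraries against 1, 0 and 0 in the posterior libraries, and it was at least 5.18-fold higher in the anterior brain with the posterior libraries set to 3 counts (adjusted p = 0.00455). The intact opn4xa had 23, 14 and 17 anterior counts and 0 in every posterior library (at least 5.02-fold higher, adjusted p = 0.00294). The groups did not overlap for either gene. Both passed the read filter through their anterior reads alone, so no other direction was possible for them. The second deleted gene, opn4xb, had 15, 0 and 0 counts in the anterior and 1, 0 and 0 in the posterior libraries, too few to be tested, and so did opn4a (0, 11 and 12 against 3, 0 and 0) and opn4b (13, 3 and 6 against 3, 0 and 0). In wild-type libraries opn4.1 had 0, 31 and 7 anterior and 5, 10 and 5 posterior counts. With lane as a term the call for opn4.1 did not pass (adjusted p = 0.204), whereas that for opn4xa did (adjusted p = 0.00514).

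Melatonin enzymes were carried mainly by the anterior brain. Of 8 listed genes of melatonin synthesis, 6 were tested and 5 were higher in the anterior brain, against a background of 15.7%, and none was higher in the posterior brain (median log2 difference 1.55). The pineal lists were chosen with earlier results of these data known, so counts of their members are a description and not an independent test. The rate-limiting enzyme of the pineal gland, aanat2, stood at 24.9, 9.60 and 7.56 CPM in the anterior libraries and 0.189, 2.83 and 0 CPM in the posterior libraries, 15.4-fold higher in the anterior brain (log2 difference 3.95 ± 0.86, adjusted p = 0.00183). The groups did not overlap, and posterior replicate 2 was the only posterior library with more than 1 count. The last enzyme of the pathway, asmt, stood at 77.6, 64.2 and 36.2 CPM in the anterior brain against 1.32, 38.2 and 9.24 CPM in the posterior brain (3.801-fold, log2 difference 1.93 ± 0.60, adjusted p = 0.0208). Here the groups overlapped, since posterior replicate 2 lay above anterior replicate 3, and the posterior libraries themselves differed from 7 to 135 counts. In the wild-type brain the same gene had 3, 7 and 6 counts in the anterior and 2, 1 and 0 counts in the posterior libraries. Without posterior replicate 2 aanat2 was at least 22.9-fold and asmt 11.6-fold higher in the anterior brain, and aanat2 was 9.01-fold higher without anterior replicate 1 and 10.2-fold without posterior replicate 3.

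The first steps of the pathway make serotonin. Tryptophan hydroxylase tph2 stood at 18.7, 18.5 and 7.56 CPM in the anterior and 3.78, 6.51 and 3.08 CPM in the posterior libraries (3.39-fold, log2 difference 1.76 ± 0.48, adjusted p = 0.00947), and tph1a at 16.5, 15.1 and 8.48 against 5.29, 5.097 and 5.499 CPM (2.52-fold, adjusted p = 0.0249). Neither gene overlapped between the parts. The decarboxylase ddc was 1.95-fold higher in the anterior brain (adjusted p = 0.0471), with 38.1, 34.7 and 22.4 against 7.93, 25.2 and 16.3 CPM, and posterior replicate 2 was above anterior replicate 3. The second asmt gene, asmt2, was found in both parts (6.95, 7.09 and 9.39 against 6.42, 13.03 and 7.04 CPM, adjusted p = 0.822), and the retinal-type AANAT had 4, 7 and 0 and 4, 26 and 1 counts and was not tested. These calls depended on single libraries. Leaving out 1 library at a time, asmt lost its call in 3 of 6 fits (without anterior replicate 1, anterior replicate 2 or posterior replicate 3, adjusted p up to 0.117), with a log2 difference of 1.34 to 3.53. In the same fits tph2 lost it without anterior replicate 1 or 2 (up to 0.0565), and tph1a and ddc lost it without anterior replicate 1, anterior replicate 2, posterior replicate 1 or posterior replicate 3 (up to 0.122 and 0.182). With lane as a term, the adjusted p was 0.238 for aanat2, 0.174 for tph2 and 0.27 for tph1a, while asmt (log2 difference 5.10, adjusted p = 0.000464) and ddc (adjusted p = 0.00154) passed.

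Phototransduction genes followed the same division. Of 44 listed genes for photoreceptor proteins 25 could be tested, and 17 of them were higher in the anterior and 0 in the posterior brain (median log2 difference 2.30). All 25 had a positive log2 difference. The read filter bears on this, since genes with few posterior reads were tested only through their anterior reads. So does the choice of the list, which was made with earlier results of these data known. In wild-type brains 6 of the 44 could be tested. Arrestins silence the active opsin. The rod-type arrestin saga stood at 112, 100.3 and 87.98 CPM in the anterior and 3.78, 30.02 and 14.5 CPM in the posterior brain (6.42-fold, log2 difference 2.68 ± 0.41, adjusted p = 7.45e-05). The cone-type arr3a stood at 42.7, 32.2 and 25.7 against 0, 13.6 and 7.699 CPM (4.92-fold, adjusted p = 0.0112), and sagb was 5.32-fold higher in the anterior brain (adjusted p = 0.0201). For all 3 arrestins every anterior library lay above every posterior library, and posterior replicate 1 was the lowest of the 6, at 20, 0 and 1 counts. The opsin kinase grk7a had 154, 56 and 21 anterior and 0, 24 and 0 posterior counts (6.41-fold, adjusted p = 0.0467), and its groups overlapped at replicates 3 and 2. With posterior replicate 2 left out, the difference was 11.1-fold for saga, 9.01-fold for arr3a, 20.6-fold for sagb and at least 21.7-fold for grk7a. Leaving out posterior replicate 1 gave 3.18-fold, 3.502-fold and 4.09-fold for the last 3 of these, anterior replicate 1 3.54-fold for sagb and 4.08-fold for grk7a, and posterior replicate 3 4.23-fold for grk7a.

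Transducin passes the signal from the opsin to phosphodiesterase 6. Its rod-type alpha subunit gnat1 stood at 73.1, 48.7 and 17.6 CPM in the anterior brain and 0, 31.1 and 4.84 CPM in the posterior brain, and the difference did not pass (log2 difference 2.03 ± 0.77, adjusted p = 0.0549), and posterior replicate 2 exceeded anterior replicate 3. Without posterior replicate 2 it passed, and over the 6 fits that left out 1 library its log2 difference ran from 1.40 to 4.33. The gamma subunit gngt1 was 5.64-fold higher in the anterior brain (log2 difference 2.50 ± 0.67, adjusted p = 0.00849), with 75.3, 60.1 and 25.2 against 0.189, 23.8 and 6.16 CPM, and it was 17.6-fold higher without posterior replicate 2 and 3.65-fold without posterior replicate 1. The gngt1 call was lost without posterior replicate 3 (adjusted p = 0.0611). The cone-type alpha subunit GNAT2 did not pass (log2 difference 1.48 ± 0.57, adjusted p = 0.0582). Of the phosphodiesterase 6 subunits, the catalytic pde6a had 34.03, 38.2 and 19.7 CPM in the anterior and 2.27, 5.66 and 2.86 CPM in the posterior libraries (8.73-fold, log2 difference 3.13 ± 0.41, adjusted p = 1.48e-05). The inhibitory pde6gb was 4.16-fold higher in the anterior brain (adjusted p = 0.00104), whereas pde6ha was read in all 6 libraries with 32.7, 20.8 and 16.3 against 20.02, 12.7 and 21.8 CPM and did not pass (adjusted p = 0.438). The channel subunit CNGA3 (ENSDARG00000070726) was 9.56-fold higher in the anterior brain (log2 difference 3.26 ± 0.64, adjusted p = 0.000801), at 13.5, 9.37 and 8.25 against 0.567, 1.13 and 1.54 CPM without overlap.

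Proteins that reset the photoreceptor lay in the anterior brain too. Recoverins, calcium sensors that hold back the opsin kinase, were represented by rcvrn3 (86.2, 94.9 and 38.5 against 0.755, 15.6 and 9.02 CPM, 9.07-fold, adjusted p = 0.000178), rcvrnb (115, 89.8 and 57.97 against 1.699, 24.9 and 13.4 CPM, 6.83-fold, adjusted p = 0.000304) and rcvrna (64, 51 and 41 against 0, 7 and 0 counts, 16.9-fold, adjusted p = 0.00318). None of the 3 recoverins overlapped between the parts. Without posterior replicate 2 they were 15.5-fold, 11.9-fold and at least 16.5-fold higher, without posterior replicate 1 rcvrn3 was 6.005-fold and rcvrna 10.7-fold higher, and without posterior replicate 3 rcvrna was 11.2-fold higher. The guanylate cyclases gucy2d (5.24-fold, adjusted p = 0.00694) and gucy2f (4.303-fold, adjusted p = 0.0327) and their activator guca1a (10.1-fold, adjusted p = 0.00348) were also higher in the anterior brain. So were the calcium exchanger slc24a1 (2.53-fold, adjusted p = 0.0158), the trafficking factor unc119.2 (3.31-fold, adjusted p = 0.00451) and the pineal opsin gene pp2, a parapinopsin, with 17.5, 13.5 and 8.25 against 3.96, 7.65 and 3.30 CPM (2.67-fold, adjusted p = 0.0315). The cyclases and their activator were 13.9-fold, 10.2-fold and 29.2-fold higher without posterior replicate 2, and guca1a was 6.699-fold higher without posterior replicate 3. Several of these calls were lost when single libraries were left out. This held for sagb, pp2, gucy2f and grk7a without anterior replicate 1, posterior replicate 1 or posterior replicate 3 (adjusted p up to 0.155, 0.171, 0.144 and 0.246), for pp2, gucy2f and grk7a also without anterior replicate 2, and for slc24a1 without anterior replicate 2, posterior replicate 1 or posterior replicate 3 (up to 0.0823). With lane as a term 12 of the 25 were called, with a median log2 difference of 4.41, and grk7a, slc24a1, unc119.2, gucy2d, gucy2f, rcvrna and pp2 did not pass (adjusted p of 0.111, 0.307, 0.0876, 0.462, 0.416, 0.0639 and 0.196), whereas gnat1 did (adjusted p = 5.62e-05).

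**Figure D1:**
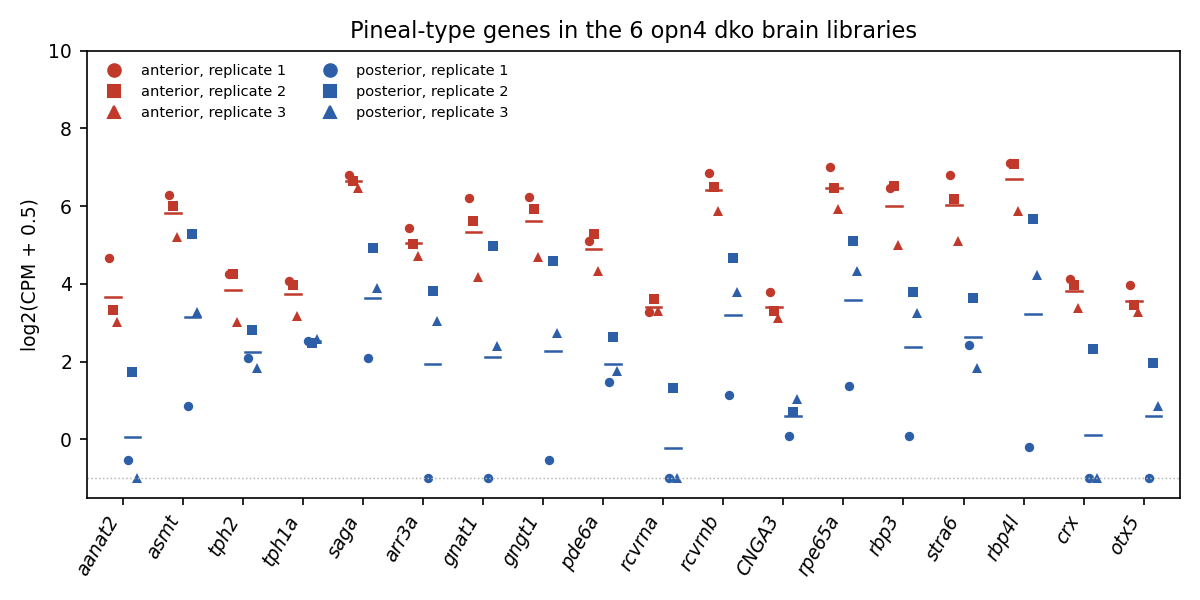
Level of 18 genes of the pineal lists in the 6 opn4 dko brain libraries. The vertical axis is log2(CPM + 0.5), red symbols are the 3 anterior and blue symbols the 3 posterior libraries, each symbol shape is a replicate, the short lines are means of the 3 log2 values and the dotted line marks 0 counts; posterior replicate 1 (blue circles) is at or near the dotted line for aanat2, arr3a, gnat1, rcvrna, crx and otx5, and posterior replicate 2 (blue squares) is the highest posterior library for most genes.

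Retinoid genes supply the chromophore of opsins. Of 13 listed, 10 were tested and 6 were higher in the anterior brain, with none higher in the posterior brain (median log2 difference 2.34). The retinoid isomerase rpe65a stood at 128, 88.5 and 60.03 CPM in the anterior and 2.08, 33.98 and 19.6 CPM in the posterior libraries (5.13-fold, log2 difference 2.36 ± 0.51, adjusted p = 0.00167). The retinol carrier rbp4l stood at 137, 136 and 58.7 against 0.378, 50.4 and 18.3 CPM (4.99-fold, adjusted p = 0.0103), and the interphotoreceptor carrier rbp3 at 88.6, 90.7 and 31.6 against 0.567, 13.3 and 9.02 CPM (9.65-fold, log2 difference 3.27 ± 0.55, adjusted p = 0.000203). The groups did not overlap for these genes, and posterior replicate 1 had 11, 2 and 3 counts. The receptor for retinol binding protein, stra6, was 11.4-fold higher in the anterior brain (log2 difference 3.51 ± 0.44, adjusted p = 9.4e-06), and the retinal binding protein rlbp1a 7.85-fold (adjusted p = 0.00962). The dehydrogenase rdh5 had 298, 143 and 34 anterior and 0, 62 and 49 posterior counts and did not pass (adjusted p = 0.116). Of 2 genes named RDH8, ENSDARG00000028048 was 2.05-fold higher in the anterior brain (adjusted p = 0.00277) and ENSDARG00000105060 did not differ beyond its error (log2 difference -0.52 ± 0.43, adjusted p = 0.404). Leaving out posterior replicate 2 gave 8.73-fold for rpe65a, 12.3-fold for rbp4l, 15.2-fold for rbp3, 17.9-fold for stra6 and 13.03-fold for rlbp1a, and leaving out posterior replicate 1 gave 3.25-fold for rbp4l and 6.34-fold for rbp3. The call for rbp4l was lost without posterior replicate 3 (adjusted p = 0.0656) and that for rlbp1a without anterior replicate 1 (0.064). With lane as a term rlbp1a (adjusted p = 0.111) and the first RDH8 gene (0.102) did not pass, and rdh5 did (0.00194).

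The pineal transcription factors crx and otx5 were read mainly in the anterior brain. The gene crx had 118, 66 and 43 counts in the anterior and 0, 16 and 0 in the posterior libraries (10.2-fold, log2 difference 3.36 ± 0.90, adjusted p = 0.0086), and otx5 had 105, 46 and 40 against 0, 12 and 6 counts (7.805-fold, log2 difference 2.96 ± 0.77, adjusted p = 0.00712). Neither overlapped between the parts. Posterior replicate 2 held all posterior reads of crx, which was at least 22.9-fold higher in the anterior brain without that library, 6.48-fold without posterior replicate 1 and 6.75-fold without posterior replicate 3. For otx5 the log2 difference was 4.17 without posterior replicate 2 and 2.32 without posterior replicate 1. Of the other members lhx4 (64, 28 and 3 against 15, 6 and 25 counts, adjusted p = 0.549) and bsx (34, 6 and 24 against 6, 6 and 12 counts, adjusted p = 0.339) did not pass. The photoreceptor factor NR2E3 had most of its reads in the posterior libraries (3, 4 and 7 against 0, 27 and 32 counts), too few to be tested, and in the fit without posterior replicate 1 it was called higher in the posterior brain (log2 difference -2.91, adjusted p = 0.0289). The melanosome gene pmelb, which is expressed by pigment cells, was also higher in the anterior brain. It had 1268, 157 and 151 anterior and 2, 33 and 0 posterior counts (30.2-fold higher in the anterior brain, adjusted p = 0.000185), and anterior replicate 1 stood far above the other anterior libraries. The pmelb difference was 11.9-fold without that library, at least 138-fold without posterior replicate 2, and 19.7-fold and 19.8-fold without posterior replicate 1 or 3. Of the 8 pigment genes 4 were tested, 1 passed, and TYR was at 0 in every brain library of either genotype, and the part of pigment cells in these results was not tested.

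Reads of the pineal list genes were not absent from the posterior brain. Over the 4 lists together, 74 genes were measured, 46 were tested, and 30 were higher in the anterior and 0 in the posterior brain. Their summed level was 1744, 1460 and 862 CPM in the anterior and 193, 609 and 357 CPM in the posterior libraries. The groups did not overlap, and the posterior brain held 22.2% of the summed CPM of both parts. Every library was scaled to the same size, so this is a share of levels and not of the pineal RNA in the brain. The lists also hold genes read at similar levels in both parts, such as asmt2 and pde6ha. Wild-type posterior libraries summed to 205, 199 and 232 CPM over the same lists, with asmt and aanat2 together at 4.36, 0.366 and 0 CPM. The list shares are thus not shares of pineal transcripts alone. For asmt and aanat2 alone the posterior share was 19.1% (6.83% without posterior replicate 2), at 102, 73.8 and 43.8 against 1.51, 41.1 and 9.24 CPM. The share was 27.9% for the genes of melatonin synthesis, 20.6% for photoreceptor proteins, 19.4% for retinoid genes and 41.1% for transcription factors. DESeq2 called 22 of the 46, and asmt, arr3a, sagb, gngt1, grk7a, rcvrna, rbp4l, rpe65a and crx were not among them. The fit with lane called 22 as well (median log2 difference 4.03 in place of 2.08), in a fit whose regional difference rests on replicate 1, the replicate with the fewest posterior pineal reads.

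By ratio, the posterior pools differed among themselves more than the anterior pools did. Set against the mean of the 3 anterior libraries, the median pineal gene stood at 127.5%, 103.9% and 64.7% in the 3 anterior libraries and at 4.62%, 44.1% and 18.6% in the 3 posterior libraries. Posterior replicate 2 was the highest posterior library for 37 of the 46 tested genes, and posterior replicate 1 was the lowest for 33 and had 0 counts for 10. Anterior replicate 3 had the lowest summed level of its group. Of habenular genes, POU4F1 stood at 14.5, 22.4 and 30.8 CPM in the same 3 posterior libraries and gng8 at 5.29, 10.5 and 9.24 CPM. The place of the cut in each fish was not tested.

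The wild-type brain had similar summed levels of the list genes in both parts, below those of the anterior opn4 dko libraries. Its summed pineal level was 245, 228 and 234 CPM in the anterior and 205, 199 and 232 CPM in the posterior libraries, and 47.4% of it lay in the posterior brain. Of the 46 genes 8 had at most 3 counts in every wild-type brain library, and of 18 that could be tested in wild-type 2 were higher in the anterior and 3 in the posterior brain. The arrestin saga had 1, 5 and 1 anterior and 9, 1 and 2 posterior counts in wild-type. The lists were chosen with earlier results of these data known, which bears on this comparison of genotypes. Posterior libraries of opn4 dko fish ranged from 193 to 609 CPM, against 199 to 232 CPM in wild-type, and posterior replicate 1 lay below the wild-type range.

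**Figure D2:**
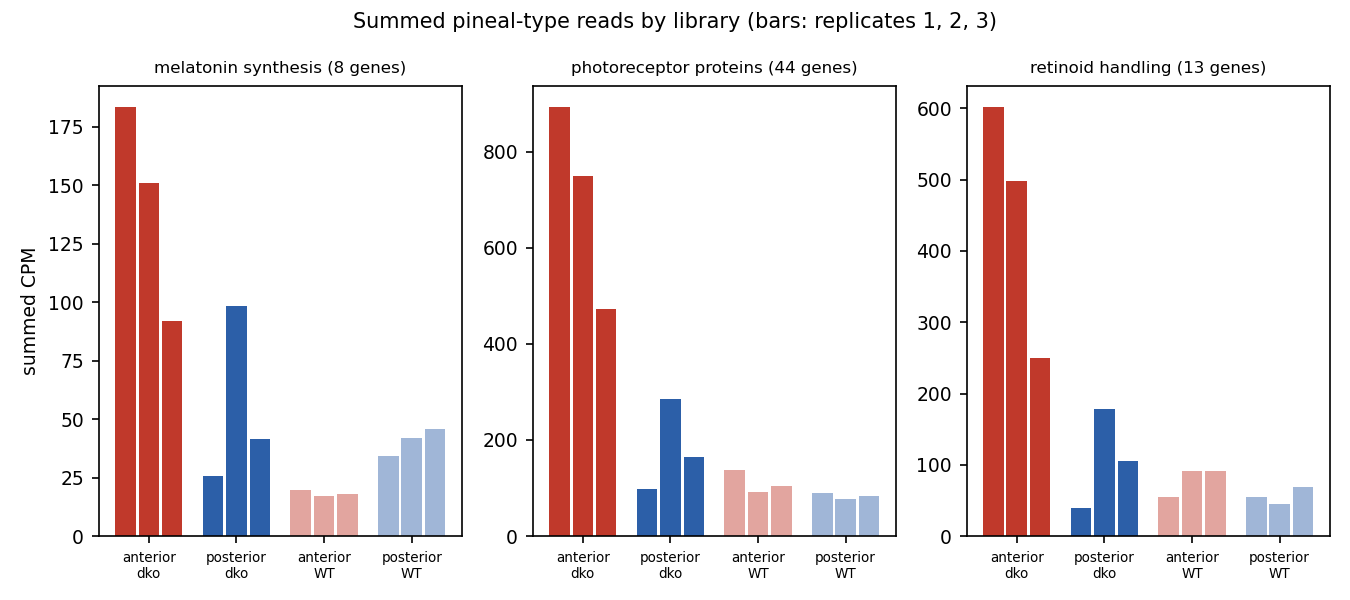
Summed CPM of the genes of melatonin synthesis, of photoreceptor proteins and of retinoid handling in each of the 12 brain libraries. Each bar is 1 library (replicates 1, 2 and 3 from left to right), red is anterior and blue posterior, full colour is opn4 dko and pale colour wild-type, and the vertical axes start at 0; the 3 anterior opn4 dko libraries are the highest for photoreceptor and retinoid genes, and for melatonin synthesis posterior replicate 2 of opn4 dko reaches 98.3 CPM, above anterior replicate 3.

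Among the listed non-visual opsins, which leave out the melanopsins described above, only pp2 was called higher in the anterior brain. The genes exorh, whose opsin is found in the pineal gland, pp1, tmtopsa and opn7b matched no symbol and were not examined. Of 22 listed, 11 were tested, 1 was higher in the anterior brain, which was pp2, and 1 in the posterior brain (background 15.7% and 14.7%). The latter was valopa, the gene of the deep brain opsin VA, with 3, 0 and 1 anterior and 34, 17 and 48 posterior counts (at least 12.06-fold higher, adjusted p = 0.000843). The groups did not overlap, and with lane as a term the call did not pass (adjusted p = 0.0518). The read filter fixed the direction of valopa, which passed it through posterior reads alone. The peropsin gene RRH had 46, 26 and 7 anterior and 0 posterior counts and was not tested.

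**Figure D3:**
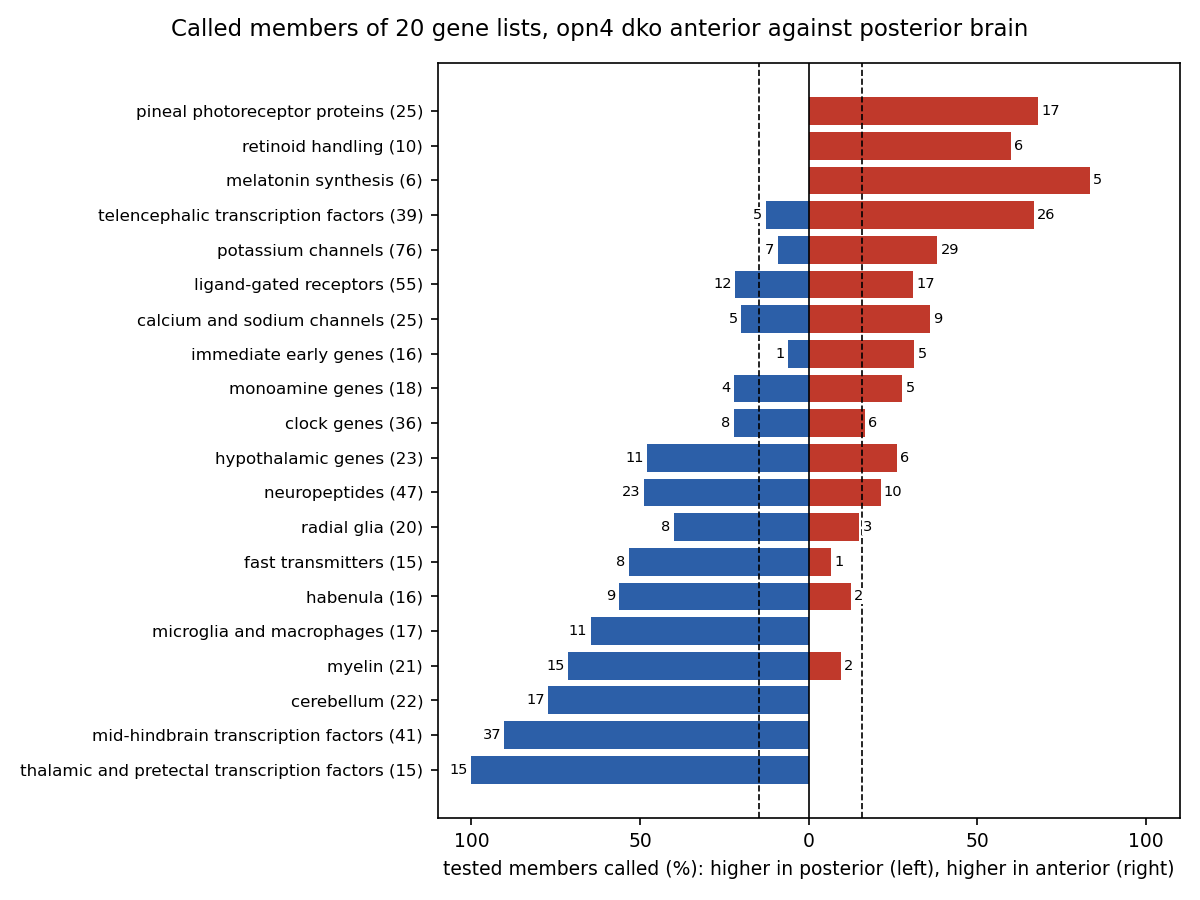
Share of tested members called in each direction for 20 gene lists, with opn4 dko anterior against posterior brain. Red bars to the right give members higher in the anterior brain and blue bars to the left those higher in the posterior brain, as a percentage of the tested members in brackets, figures at the bar ends count the called members, and the dashed lines mark the share among all tested genes (15.7% and 14.7%); thalamic and pretectal and mid-hindbrain transcription factors lie wholly on the posterior side and the lists of pineal photoreceptor, retinoid and melatonin genes wholly on the anterior side.

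Transcription factors of the telencephalon were mostly higher in the anterior brain. Of 42 listed, 39 were tested, 26 were higher in the anterior and 5 in the posterior brain (median log2 difference 1.57). The pallial factor TBR1 stood at 326, 229.9 and 309 CPM in the anterior and 2.27, 2.27 and 3.08 CPM in the posterior libraries (112-fold, log2 difference 6.81 ± 0.23, adjusted p = 1.1e-12). The pallial factor emx3 had 275, 181 and 171 anterior counts and 0, 0 and 1 posterior counts, and with the posterior libraries set to 3 counts it was at least 57.98-fold higher in the anterior brain (adjusted p = 3.14e-09). For both genes every anterior library lay far above every posterior library.

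Of factors of the pallium, EOMES (ENSDARG00000006640) was 27.8-fold higher in the anterior brain (adjusted p = 1.54e-11), tbr1a 28.6-fold (adjusted p = 3.65e-06), BHLHE22 9.72-fold (adjusted p = 3.82e-10), EMX1 9.44-fold (adjusted p = 0.000219) and NEUROD6 (ENSDARG00000040008) 5.95-fold (adjusted p = 1.24e-09). The zinc finger factor ZBTB18, found in pallial neurons, was 2.83-fold higher. The bHLH factor BHLHE23, listed as a retinal gene, was 7.53-fold higher in the anterior brain (adjusted p = 4.36e-10). Among factors of subpallial and GABAergic neurons, LHX6 (ENSDARG00000006896) was 12.6-fold higher (adjusted p = 3.88e-05), LHX8 14.4-fold (adjusted p = 0.000225), DLX2 (ENSDARG00000079964) 4.67-fold (adjusted p = 0.000183), DLX6 4.004-fold (adjusted p = 0.00011) and DLX1 1.995-fold (adjusted p = 0.00331). Single libraries moved the sizes of some of these, as EMX1 was 15.1-fold and LHX6 21.9-fold higher without posterior replicate 3 and LHX8 22.9-fold and tbr1a at least 25.8-fold without posterior replicate 1. Posterior replicate 2 was the lowest posterior library for DLX1, DLX2, DLX6 and LHX6, the last with 15, 0 and 24 counts. Further anterior factors were SIX3 (ENSDARG00000054879, 4.05-fold) and FEZF2 (4.21-fold, adjusted p = 0.000383), the last of which did not pass with lane as a term (adjusted p = 0.0749).

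The 5 of 39 tested telencephalic factors that went the other way were not above the posterior share over all tested genes (14.7%). The homeobox gene meis2b had 1, 5 and 0 anterior and 233, 195 and 253 posterior counts (124-fold higher in the posterior brain, adjusted p = 1.4e-08). Without anterior replicate 2 meis2b was at least 92.04-fold higher there. LHX9, a factor of thalamic neurons too, was 4.16-fold higher in the posterior brain (log2 difference -2.06 ± 0.18, adjusted p = 1.3e-07). The second EOMES gene (ENSDARG00000104243) was 4.12-fold higher in the posterior brain (adjusted p = 0.000492), so that the 2 copies had opposite directions. EMX2 was 1.84-fold higher in the posterior brain (adjusted p = 0.0182). That call was lost without anterior replicate 1, anterior replicate 2 or posterior replicate 3 (adjusted p up to 0.071), with lane as a term (0.332) and with library size set by actb1 reads.

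**Figure D4:**
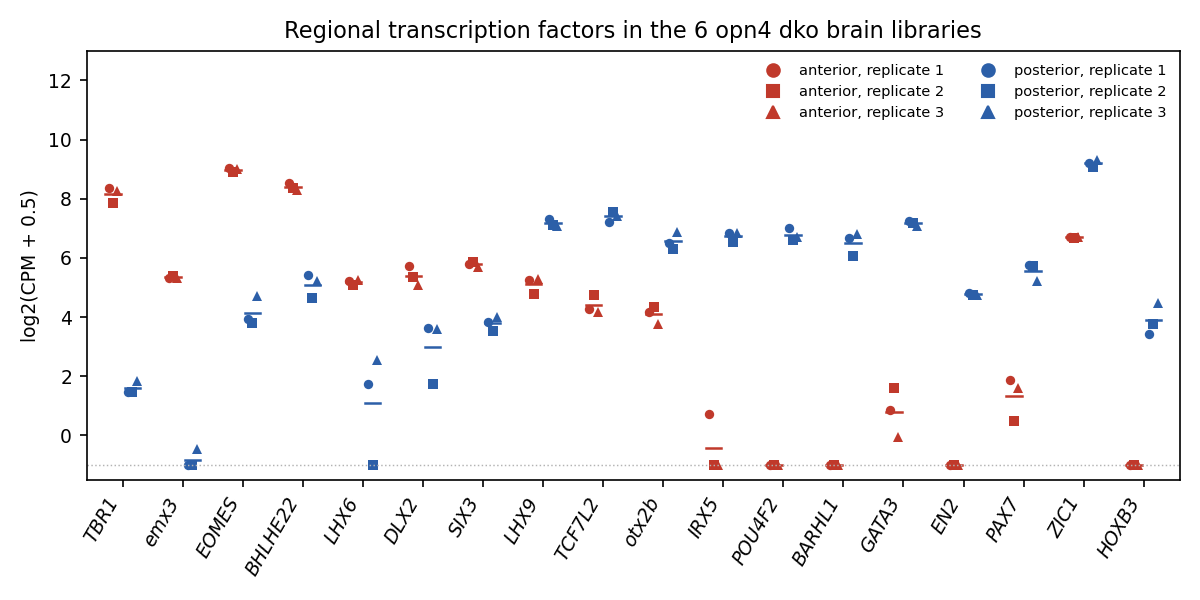
Level of 18 regional transcription factors in the 6 opn4 dko brain libraries, ordered by eye from telencephalic to hindbrain factors. The vertical axis is log2(CPM + 0.5), red symbols are the 3 anterior and blue symbols the 3 posterior libraries, each shape is a replicate, short lines are means of the 3 log2 values and the dotted line marks 0 counts; the EOMES, LHX6, DLX2, SIX3, EN2 and PAX7 genes are those whose identifiers are given in the text, and POU4F2, BARHL1, EN2 and HOXB3 have 0 counts in all 3 anterior libraries.

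Thalamic, midbrain and hindbrain factors lay almost wholly in the posterior brain. All 15 tested factors of the thalamus and pretectum, of 16 listed, were higher there (median log2 difference -4.33, and -3.01 with genes at or under 3 anterior counts set to their bound). Of 59 mid-hindbrain factors 41 were tested, 37 were higher in the posterior brain and none in the anterior brain (median -4.33, and -3.49 with bounds). At most 3 counts were found in every anterior library for 5 of the 15 and 13 of the 41. Those genes passed the read filter through their posterior reads alone, so no other direction was possible for them. The tectal factor POU4F2, also a marker of retinal ganglion cells, stood at 0 in the anterior and 128, 96.3 and 103 CPM in the posterior libraries (at least 181-fold higher, adjusted p = 7.65e-11). BARHL1, a factor of cerebellar granule cells and other dorsal neurons, stood at 0 against 102, 66.5 and 110.4 CPM (at least 154-fold, adjusted p = 4.26e-10).

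Iroquois factors pattern the thalamus and regions behind it. IRX1 (ENSDARG00000101831) had 0 counts in the anterior libraries and 334, 173 and 358 in the posterior ones (at least 106-fold higher, adjusted p = 1.47e-09). IRX3 (ENSDARG00000101076) had 2, 0 and 0 against 584, 343 and 572 counts (at least 184-fold, adjusted p = 1.94e-11), and IRX5 had 8, 0 and 0 against 599, 324 and 522 counts (203-fold, adjusted p = 6.94e-10). All anterior IRX5 counts were in replicate 1, and without it IRX5 was at least 155-fold higher in the posterior brain. TCF7L2, a Wnt effector of thalamus and habenula, and the forebrain and midbrain factor otx2b were also read in the anterior brain. TCF7L2 stood at 18.97, 26.5 and 17.6 against 149, 189 and 171 CPM (8.08-fold, log2 difference -3.01 ± 0.19, adjusted p = 2.63e-09) and otx2b at 17.4, 19.9 and 13.1 against 91.01, 78.4 and 117 CPM (5.69-fold, log2 difference -2.51 ± 0.22, adjusted p = 1.74e-07).

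Of the factors of the midbrain and its border with the hindbrain, EN2 had 2 measured copies, one (ENSDARG00000038868) at 0 against 27.4, 26.6 and 26.2 CPM (at least 44.4-fold higher, adjusted p = 7.47e-08) and the other (ENSDARG00000026599) at 2, 0 and 0 against 332, 228 and 244 counts (at least 100.1-fold, adjusted p = 4.49e-10). PAX2 (ENSDARG00000028148) was 118-fold higher in the posterior brain (adjusted p = 1.74e-08) and PAX7 (ENSDARG00000100398) 20.5-fold (adjusted p = 1.03e-07). GATA3 and TAL2, factors of GABAergic midbrain neurons, were 99.99-fold and 39.9-fold higher (adjusted p = 3.83e-11 and adjusted p = 8.82e-08). The zinc finger factors ZIC1 and ZIC5 were higher in the posterior brain by 5.71-fold and 10.6-fold, from an anterior level of 105, 101 and 104 CPM for ZIC1. TFAP2B was 47.7-fold higher (adjusted p = 2.04e-09). Some of these folds changed with 1 library left out. PAX2 was 68.6-fold higher without anterior replicate 1 and at least 87.6-fold without anterior replicate 2, TAL2 91.8-fold without anterior replicate 2 and TFAP2B 72.6-fold without anterior replicate 3. The tested members that did not pass were few, among them GBX1 (8.69, 1.37 and 9.16 against 3.59, 3.398 and 7.04 CPM, adjusted p = 0.657) and LMX1B (ENSDARG00000104815, adjusted p = 0.0928).

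The tested Hox genes were read in the posterior brain alone. Of 47 Hox genes 34 had 0 counts in all 6 libraries, and all 6 that could be tested were higher in the posterior brain. These 6 passed the read filter through their posterior reads alone, so no other direction was possible for them. HOXB3 had 0 anterior counts and 54, 46 and 99 posterior counts (at least 24.9-fold higher, adjusted p = 4.65e-06), and HOXA3 0 against 40, 45 and 71 (at least 19.9-fold, adjusted p = 1.73e-05). HOXD3 (28, 36 and 22 posterior counts), hoxc3a (23, 22 and 34), HOXB5 (ENSDARG00000054030, 15, 36 and 35) and HOXB2 (13, 17 and 21) also had 0 in each anterior library. The 6 tested genes belong to paralogue groups expressed in the hindbrain. In the fit with lane, HOXB5, hoxc3a and HOXB2 did not pass (adjusted p of 0.0959, 0.051 and 0.149).

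Habenular genes were mostly in the posterior brain, where the cut had placed the habenula. Of 18 listed, 16 were tested, 9 were higher in the posterior and 2 in the anterior brain (background 14.7% and 15.7%). The median log2 difference was -1.15. The G protein subunit gng8 had 0 anterior and 28, 37 and 42 posterior counts (at least 13.8-fold higher, adjusted p = 0.000113), POU4F1 had 2, 0 and 0 against 77, 79 and 140 (at least 37.5-fold, adjusted p = 4.9e-07), and the orphan receptor GPR151 had 15, 0 and 1 against 41, 43 and 62 (12.05-fold, adjusted p = 0.00267). Anterior replicate 1 held 15 of the 16 anterior counts of GPR151, which was at least 16.3-fold higher without it, and its call did not pass with lane as a term (adjusted p = 0.11). The channel partner kctd12.2 was 2.45-fold higher in the posterior brain (adjusted p = 0.000107). The choline transporter SLC5A7 (ENSDARG00000074860) was 12.4-fold higher there (adjusted p = 6.29e-07), and the peptide gene kiss1 had 2, 0 and 0 against 29, 15 and 7 counts and was not tested. The 2 members higher in the anterior brain were KCTD8 (3.94-fold, adjusted p = 8.56e-08) and SST, a peptide gene used widely outside the habenula.

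Cerebellar genes were higher in the posterior brain in 17 of 22 tested, and in none was the anterior brain higher (median log2 difference -1.19). One ALDOC gene (ENSDARG00000057661), for the Purkinje cell marker aldolase C, stood at 1.303, 0 and 0 CPM in the anterior and 429.8, 308 and 372 CPM in the posterior libraries (625-fold, log2 difference -9.29 ± 0.37, adjusted p = 8.87e-12). Its anterior reads all came from replicate 1, and it was at least 539-fold higher without that library. The GABA receptor subunit of granule cells, GABRA6 (ENSDARG00000058736), had 0, 6 and 0 against 61, 58 and 48 counts (29.6-fold, adjusted p = 0.000401). GABRA6 was at least 22.9-fold higher without anterior replicate 2, which held its anterior reads, and 17.9-fold without anterior replicate 1. Others were CA8 (6.61-fold), cbln12 (13.9-fold) and calb2b (19.6-fold), whereas the parvalbumin gene pvalb7 was only 1.62-fold higher (adjusted p = 0.000384) and CBLN1 did not pass (adjusted p = 0.0812). The granule cell factor NEUROD1 stood at 289.9, 274 and 282 against 825, 651 and 655 CPM (2.52-fold higher in the posterior brain, adjusted p = 2.54e-07). The pvalb7 call was lost with library size set by actb1 reads.

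The whole hypothalamus lay in the posterior part, but its genes were divided. Of 37 listed 23 were tested, 11 were higher in the posterior and 6 in the anterior brain (background 14.7% and 15.7%, median log2 difference -1.37). For 6 of the 23, every library of 1 part had at most 3 counts, so the read filter fixed their direction. The melanin concentrating hormone gene pmchl stood at 0.145, 0.229 and 0 CPM in the anterior and 218, 201 and 276 CPM in the posterior libraries, at least 385-fold higher in the posterior brain (adjusted p = 7.6e-13). The peptide gene npvf had 0 against 77, 23 and 77 counts (at least 21.02-fold, adjusted p = 1.47e-05), and the feeding peptide gene agrp 0 against 40, 18 and 21 (at least 9.55-fold, adjusted p = 0.00046). The wake-promoting peptide gene HCRT had 0, 2 and 0 against 18, 6 and 21 counts, too few to be tested. The tuberal factor NKX2-4 (ENSDARG00000075107) had 0 against 111, 61 and 94 counts (at least 32.6-fold, adjusted p = 4.46e-07), and OTP (ENSDARG00000014201), a factor of neuroendocrine cells, was 2.59-fold higher in the posterior brain (adjusted p = 0.000188).

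Preoptic and neurosecretory peptides were read in both parts. Oxytocin, oxt, stood at 242, 391 and 134 CPM in the anterior and 1045, 339.8 and 720 CPM in the posterior libraries (2.74-fold higher in the posterior brain, log2 difference -1.45 ± 0.33, adjusted p = 0.00237), and the groups overlapped, with posterior replicate 2 below anterior replicate 2. Vasopressin, avp, stood at 4.34, 8.69 and 2.75 against 27.4, 12.7 and 12.5 CPM (3.36-fold, adjusted p = 0.00901), and its call was lost without posterior replicate 1 (adjusted p = 0.11). Neither passed with lane as a term (adjusted p of 0.383 for oxt and 0.337 for avp). CRH (adjusted p = 0.0919) and POMC (adjusted p = 0.0566) did not pass, and POMC changed direction with lane as a term (log2 difference 0.38 in place of -1.44). Higher in the anterior brain were FEZF1 (4.79-fold, adjusted p = 5.35e-05), NKX2-1, which is also a subpallial factor (2.35-fold, adjusted p = 0.0159), and NPY (2.08-fold, adjusted p = 0.000164). The NKX2-1 call was lost without anterior replicate 2 (adjusted p = 0.0762) and with lane as a term (0.274). The growth hormone releasing hormone gene ghrh had 15, 21 and 11 anterior counts and 0 posterior counts and was not tested.

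Over all 65 peptide precursors 47 were tested, 23 were higher in the posterior and 10 in the anterior brain (background 14.7% and 15.7%, median log2 difference -1.44). For 8 of the 47, every library of 1 part had at most 3 counts, so the read filter fixed their direction. The relaxin gene rln3a, a marker of the hindbrain nucleus incertus, had 1, 0 and 0 anterior and 1103, 500 and 935 posterior counts (at least 307-fold higher in the posterior brain, adjusted p = 2.27e-12). The 2 gonadotropin releasing hormone genes parted, with gnrh2, made in the midbrain tegmentum, at 0 against 54, 11 and 36 counts (at least 11.8-fold higher in the posterior brain, adjusted p = 0.000265) and gnrh3, made in the ventral forebrain, at 121, 35 and 125 against 14, 0 and 0 counts (17.9-fold higher in the anterior brain, adjusted p = 0.000762). The enkephalin genes also parted, with penka 4.38-fold higher in the posterior brain (log2 difference -2.13 ± 0.17, adjusted p = 6e-08) and PENK 2.101-fold higher in the anterior brain (log2 difference 1.07 ± 0.17, adjusted p = 0.000146). The same was seen for the PACAP genes, as ADCYAP1 had 0, 4 and 0 against 62, 68 and 99 counts (60.4-fold higher in the posterior brain) and adcyap1b stood at 1735, 1858 and 1734 against 434, 438 and 419.7 CPM (4.13-fold higher in the anterior brain, adjusted p = 1.31e-10). The folds of gnrh3 and ADCYAP1 rest on few reads of 1 library each, and gnrh3 was at least 23.9-fold higher without posterior replicate 1, while ADCYAP1 was at least 31.3-fold higher without anterior replicate 2 and 36.1-fold without anterior replicate 1.

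Peptides of the anterior brain included npffl, with 205, 17 and 63 anterior against 1, 0 and 0 posterior counts (at least 23.1-fold higher, adjusted p = 2.48e-05), and PYY, with 38.4, 30.4 and 43.1 against 1.13, 0.566 and 0.220 CPM (53.98-fold, log2 difference 5.75 ± 0.45, adjusted p = 3.62e-08). Anterior replicate 1 was high for npffl, which was at least 13.2-fold higher without it, and PYY was at least 49.4-fold higher without posterior replicate 1. Somatostatin, SST, was 2.91-fold higher in the anterior brain (adjusted p = 4.5e-06). In the posterior brain CCK was 7.64-fold higher (adjusted p = 8.25e-07), VIP 6.29-fold (adjusted p = 0.000188) and one CARTPT gene (ENSDARG00000045832) 5.58-fold (adjusted p = 2.1e-08). None of these groups overlapped between the parts.

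Genes of cholinergic and glycinergic neurons were read in the posterior brain. Of 18 genes for fast transmitters 15 were tested, 8 were higher in the posterior and 1 in the anterior brain (median log2 difference -0.54). For 3 of the 15, every library of 1 part had at most 3 counts, so the read filter fixed their direction. Choline acetyltransferase, CHAT, stood at 0 CPM in the anterior and 46.1, 45.6 and 34.3 CPM in the posterior libraries (at least 69.7-fold higher, adjusted p = 7.29e-09). The vesicular acetylcholine transporter SLC18A3 had 0 against 60, 30 and 42 counts (at least 16.1-fold, adjusted p = 4.14e-05) and the glycine transporter SLC6A5 1, 0 and 0 against 77, 65 and 13 (at least 19.8-fold, adjusted p = 5.98e-05). GABA synthesis was present throughout, with GAD1 (ENSDARG00000027419) at 478, 417 and 466 against 1027, 933 and 1135 CPM (2.27-fold higher in the posterior brain, log2 difference -1.19 ± 0.11, adjusted p = 4.24e-07). The vesicular GABA transporter SLC32A1 was 1.46-fold higher there (adjusted p = 0.00347), a call lost with lane as a term and with library size set by actb1 reads. Of the 2 vesicular glutamate transporter genes named SLC17A6, ENSDARG00000001127 was 4.28-fold higher in the anterior brain (adjusted p = 7.93e-09) and ENSDARG00000041150 did not pass (log2 difference -0.21 ± 0.14, adjusted p = 0.298).

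Monoamine genes had 5 members higher in the anterior and 4 in the posterior brain of 18 tested (background 15.7% and 14.7%). Of the 5, 3 were the genes tph1a, tph2 and ddc described above. The noradrenaline transporter slc6a2 stood at 81.8, 75.2 and 61.2 CPM in the anterior and 8.497, 23.8 and 11.2 CPM in the posterior libraries (5.12-fold, log2 difference 2.36 ± 0.30, adjusted p = 1.31e-05), and the cofactor enzyme GCH1 was 2.03-fold higher in the anterior brain (adjusted p = 0.0105). The serotonin transporter SLC6A4, by contrast, had 10, 1 and 17 anterior and 35, 43 and 32 posterior counts (4.62-fold higher in the posterior brain, adjusted p = 0.0351), and the raphe factor FEV had 0 against 26, 1 and 7 counts and was not tested. DBH, which makes noradrenaline, had 5, 0 and 0 against 26, 10 and 39 counts (17.4-fold, adjusted p = 0.00733) and NR4A2 (ENSDARG00000044532), a factor of dopamine neurons, 16, 5 and 23 against 49, 54 and 43 (3.89-fold, adjusted p = 0.0163). These were fragile calls. Left out singly, 5 of the 6 libraries (all but anterior replicate 3) ended that for SLC6A4 (adjusted p up to 0.134), anterior replicate 1, anterior replicate 2 and posterior replicate 2 that for NR4A2 (0.0735), anterior replicate 1 and posterior replicate 3 that for GCH1 (0.0589) and posterior replicate 3 that for DBH (0.0551). The difference was 9.32-fold for SLC6A4 and 6.301-fold for NR4A2 without anterior replicate 3, and at least 7.92-fold for DBH without anterior replicate 1, which held its anterior reads. In the fit with lane, SLC6A4, NR4A2 and DBH did not pass (adjusted p of 0.0953, 0.217 and 0.175).

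Receptor and channel subunits were divided between the parts. Of 62 ligand-gated receptor subunits 55 were tested, 17 were higher in the anterior and 12 in the posterior brain (background 15.7% and 14.7%). Their median log2 difference was 0.33. The GABA receptor subunit GABRA5 stood at 199, 193 and 200 CPM in the anterior and 45.1, 62.9 and 56.97 CPM in the posterior libraries (3.602-fold, log2 difference 1.85 ± 0.16, adjusted p = 1.06e-07). The NMDA receptor subunit GRIN2B (ENSDARG00000030376) was 5.596-fold higher in the anterior brain (adjusted p = 9.92e-11) and the AMPA receptor subunit GRIA2 (ENSDARG00000052765) 2.37-fold (adjusted p = 9.75e-08). In the posterior brain the NMDA receptor subunit GRIN2C (ENSDARG00000078149) was 23.6-fold higher (adjusted p = 4.25e-09) and the glycine receptor subunit GLRA1 3.303-fold (adjusted p = 2.36e-05).

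Potassium channel genes leaned to the anterior brain, with 29 of 76 tested higher there and 7 in the posterior brain (median log2 difference 0.53). One KCNK10 gene (ENSDARG00000045956), a background channel, had 55, 53 and 38 anterior and 2, 2 and 0 posterior counts (at least 13.9-fold higher, adjusted p = 0.000259). The delayed rectifier kcnb2a had 116, 14 and 69 against 8, 0 and 0 counts (20.4-fold, adjusted p = 0.00162), and the calcium-activated kcnn3 was 3.44-fold higher in the anterior brain (adjusted p = 1.46e-07). The 8 posterior kcnb2a counts were all in replicate 1, and without it the difference was at least 15.8-fold. The fast delayed rectifier kcnc3a was 5.08-fold higher in the posterior brain (log2 difference -2.35 ± 0.22, adjusted p = 2.73e-07). Of 25 tested calcium and sodium channel genes 9 were higher in the anterior and 5 in the posterior brain (background 15.7% and 14.7%). SCN3B (2.88-fold) and cacna1db (2.33-fold) were higher in the anterior brain and one SCN4B gene (ENSDARG00000060319, 0, 5 and 0 against 47, 54 and 21 counts) in the posterior brain. SCN4B was at least 17.1-fold higher without anterior replicate 2 and 15.9-fold without anterior replicate 1. The SCN4B call did not pass with lane as a term (adjusted p = 0.12).

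Myelin transcripts were far more abundant in the posterior brain. Of 21 listed, all were tested, 15 were higher there and 2 in the anterior brain (median log2 difference -1.84). Myelin basic protein, mbpa, stood at 266, 209 and 265 CPM in the anterior and 5460, 5346 and 6813 CPM in the posterior libraries (23.8-fold, log2 difference -4.57 ± 0.13, adjusted p = 4.13e-13). The proteolipid plp1b was 10.98-fold higher in the posterior brain (adjusted p = 3.54e-10) and the claudin cldnk 21.5-fold (adjusted p = 1.33e-09). The oligodendrocyte factors SOX10 and OLIG2 were 2.46-fold and 4.04-fold higher (adjusted p = 0.000733 and adjusted p = 2.11e-05). The groups did not overlap for any of these 5 genes. The 2 members higher in the anterior brain were TSPAN2 (1.53-fold, adjusted p = 0.002) and cnp (1.44-fold, adjusted p = 0.0384), and the cnp call was lost when any library but posterior replicate 2 was left out (adjusted p up to 0.152), with lane as a term (0.156), with upper quartile normalisation and with actb1 reads as library size.

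Radial glia genes had 8 members higher in the posterior and 3 in the anterior brain of 20 tested (background 14.7% and 15.7%). The anterior count was thus close to the share over all tested genes. The glutamate transporter SLC1A3 (ENSDARG00000043148) stood at 465, 445 and 349 CPM in the anterior and 152, 155 and 152 CPM in the posterior libraries (2.75-fold, log2 difference 1.46 ± 0.13, adjusted p = 2.67e-07). SLC1A2 (ENSDARG00000102453) was 1.42-fold higher in the anterior brain (adjusted p = 0.000348), and so was fabp7b, a fatty acid binding protein gene of radial glia (5.63-fold, adjusted p = 0.00101), whose anterior libraries stood at 90.1, 47.8 and 14.4 CPM. Without anterior replicate 1 fabp7b was 3.41-fold higher. S100B (2.85-fold, adjusted p = 0.000101) and ID1 (2.81-fold, adjusted p = 3.09e-05) were higher in the posterior brain, and GFAP did not pass (adjusted p = 0.238).

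Microglia and macrophage genes were higher in the posterior brain in 11 of 17 tested and in the anterior brain in none (median log2 difference -1.24). The invariant chain gene cd74a stood at 397, 235 and 311 CPM in the anterior and 1480, 882 and 1242 CPM in the posterior libraries (3.81-fold, log2 difference -1.93 ± 0.18, adjusted p = 3.77e-07), and cd74b was 4.55-fold higher in the posterior brain (adjusted p = 6.35e-07). The microglial apolipoprotein gene apoc1 was 3.65-fold higher (adjusted p = 1.56e-07), and the leukocyte actin regulators CORO1A and lcp1 were 3.73-fold and 2.76-fold higher (adjusted p = 8.08e-05 and adjusted p = 7.62e-05). The receptor csf1rb did not pass (log2 difference 0.37 ± 0.17, adjusted p = 0.119). Blood transcripts went the same way, with hbaa1 3.87-fold higher (adjusted p = 1.36e-06) and HBE1 (ENSDARG00000089087) 4.51-fold (adjusted p = 4.24e-07). Of the vessel and meninges list 17 were tested and 2 passed in each direction, not above the share over all tested genes (15.7% anterior and 14.7% posterior). The endothelial cadherin gene cdh5 was 2.17-fold higher in the anterior brain (adjusted p = 0.0388). FOXC1, a factor of meninges and vessel walls, was 2.02-fold higher in the posterior brain (adjusted p = 0.00832). In the fit with lane neither passed (adjusted p of 0.123 for cdh5 and 0.172 for FOXC1), FOXC1 was also lost with library size set by actb1 reads, and cdh5, 3.39-fold higher without posterior replicate 2, was lost without anterior replicate 1, anterior replicate 2, posterior replicate 1 or posterior replicate 3 (adjusted p up to 0.2). The part of blood in the immune results was not tested.

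Clock genes had 6 of 36 tested higher in the anterior and 8 in the posterior brain (background 15.7% and 14.7%, median log2 difference -0.28). The anterior count was close to the share over all tested genes. Output factors of the PAR bZIP family took opposite directions. The genes dbpa (3.06-fold, log2 difference 1.61 ± 0.20, adjusted p = 6.74e-06) and dbpb (2.34-fold, adjusted p = 0.000705) were higher in the anterior brain, and tefa (2.78-fold, log2 difference -1.48 ± 0.13, adjusted p = 1.94e-07) and tefb (1.86-fold, adjusted p = 0.0088) in the posterior brain. The repressor ciartb was 3.93-fold higher in the anterior brain (adjusted p = 0.00103), and cry4 (5.28-fold, adjusted p = 5.35e-05) and the light-induced period gene per2 (1.75-fold, adjusted p = 0.00134) were higher in the posterior brain. The tefb call was lost without posterior replicate 2 (adjusted p = 0.0681) and with lane as a term (0.176), and that for per2 with library size set by actb1 reads. Of 5 melatonin receptor genes 1 was tested, mtnr1aa, and it did not pass (log2 difference -2.02 ± 0.97, adjusted p = 0.13).

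Immediate early genes, which neurons induce on activity, had 5 of 16 tested higher in the anterior and 1 in the posterior brain (background 15.7% and 14.7%). The factor FOSL2 stood at 85.0, 112 and 116 CPM in the anterior and 14.7, 26.6 and 19.8 CPM in the posterior libraries (5.16-fold, log2 difference 2.37 ± 0.23, adjusted p = 4.4e-07). EGR3 was 2.41-fold higher (adjusted p = 0.000141) and egr1 1.65-fold (adjusted p = 0.000474), without overlap in either. The member higher in the posterior brain was fosaa (25, 10 and 21 against 52, 35 and 61 counts, adjusted p = 0.02), which lost its call without anterior replicate 2 or posterior replicate 3 (adjusted p up to 0.0843), with lane as a term (0.356) and with library size set by actb1 reads. Of 21 tested genes of neurogenesis 3 were higher in each part, close to the share over all tested genes (15.7% anterior and 14.7% posterior). The tubulin gene tubb5 was 2.32-fold higher in the anterior brain (adjusted p = 0.000195).

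With lane as a term, where 16.3% of all genes were called, further lists with at least 5 calls in a direction fell by more than 1.5 times. Higher in the anterior brain there were 18 potassium channel genes in place of 29, 3 hypothalamic genes in place of 6, 3 monoamine genes in place of 5 and 3 immediate early genes in place of 5. Higher in the posterior brain were 7 microglia genes in place of 11, 5 clock genes in place of 8, 4 potassium channel genes in place of 7, 3 telencephalic factors in place of 5 and 2 calcium and sodium channel genes in place of 5. No monoamine gene was called higher in the posterior brain.

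Outside the lists, 2189 genes higher in the anterior and 1985 higher in the posterior brain had a symbol, no overlap between the parts and no fewer than 10 counts in any library of the higher part, and the 12 with the largest log2 difference in each direction are given here, leaving out 156 and 170 genes that have only a clone-type name. In the anterior brain they were rtn4rl2b, a Nogo receptor homologue, at 150.5, 153 and 114 against 3.02, 1.42 and 1.54 CPM (66.4-fold, log2 difference 6.05 ± 0.27, adjusted p = 4.31e-11), the cation channel gene TRPC6 (58.4-fold, adjusted p = 3.42e-08), the small GTPase gene GEM (47.1-fold, adjusted p = 2.99e-09), the amino acid transporter gene SLC3A1 with 35, 26 and 28 against 0 counts (at least 8.39-fold, adjusted p = 0.000477), the endothelin receptor gene EDNRB with 43, 13 and 20 against 0 counts (at least 6.64-fold, adjusted p = 0.00128), TRAF4, il17rc, plvapa, ubtd1a, LRRTM4, scxb and ptprq. For TRAF4, plvapa, ubtd1a, il17rc, LRRTM4 and scxb no posterior library had more than 3 counts. For these genes, SLC3A1 and EDNRB the read filter fixed the direction. Their place among the 12 depends on the prior count, since only a lower bound of their fold is known. Without posterior replicate 1 GEM was at least 75.3-fold higher. In wild-type SLC3A1 had 9, 19 and 19 anterior and 1, 5 and 0 posterior counts. In the fit with lane, EDNRB, plvapa, LRRTM4 and scxb did not pass (adjusted p of 0.0989, 0.149, 0.0544 and 0.289), and scxb also lost its call without posterior replicate 1 (adjusted p = 0.0501).

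The corresponding 12 of the posterior brain included the transcription factors DMBX1, SHOX and MAFA. The homeobox gene DMBX1 had 0 anterior counts and 332, 262 and 322 posterior counts (at least 115-fold higher, adjusted p = 4.36e-10), pou4f4 0 against 182, 97 and 141 (at least 51.4-fold, adjusted p = 3.42e-08), SHOX 1, 0 and 0 against 303, 160 and 274 (at least 90.1-fold, adjusted p = 4.26e-10) and MAFA 0 against 81, 66 and 76 (at least 28.1-fold, adjusted p = 1.2e-06). TFAP2E, skor2, IRX6, erfl1 and gpr78b also had 0 in every anterior library. All 12 were at or near 0 in the anterior brain, so the read filter fixed their direction. Their place among the 12 depends on the prior count, since only a lower bound of their fold is known. The calcium store protein gene CASQ2 had 0 against 139, 66 and 132 counts (at least 40.9-fold, adjusted p = 1.66e-07) and the polarity gene pard6ga 0 against 158, 83 and 54 (at least 36.1-fold, adjusted p = 8.15e-07). The urotensin related peptide gene urp2, found in cells that contact the cerebrospinal fluid, had 0 against 15, 14 and 71 counts (at least 12.4-fold, adjusted p = 0.000484). Without posterior replicate 3 urp2 was at least 5.64-fold higher. The call for gpr78b was lost with lane as a term (adjusted p = 0.0753).

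The difference between the brain parts was itself compared between genotypes, as the anterior minus posterior difference in opn4 dko less that in wild-type over the 12 brain libraries. It passed in 1 of 16848 genes (0.00594%) with edgeR's quasi-likelihood test, and 738 genes (4.38%) had an unadjusted p below 0.05. DESeq2 called 10 genes. The gene was tph2, which had 129, 81 and 33 anterior and 20, 23 and 14 posterior counts in opn4 dko and 1, 0 and 0 anterior and 23, 13 and 16 posterior counts in wild-type. It was thus higher in the anterior brain of opn4 dko fish and in the posterior brain of wild-type fish, with no overlap between parts in either genotype. The log2 difference of differences was 7.30 ± 1.16 (adjusted p = 0.0244), a value that depends on the prior count because wild-type anterior libraries had at most 1 count, and it was 4.58 with these set to 3 counts. The call was lost in 6 of the 12 fits that left out 1 library (wild-type anterior replicate 2 or 3, wild-type posterior replicate 3, opn4 dko anterior replicate 1 or 2, or opn4 dko posterior replicate 3), over which the value ran from 6.70 to 9.14. With lane as a term the difference was 7.28 and was called (adjusted p = 0.0166). Both genotypes had the same lanes within each part, so a lane term could change this difference little. The gene ddc had the same pattern but did not pass (log2 3.08 ± 0.57, adjusted p = 0.101), with 6.37, 3.52 and 4.13 CPM in the anterior and 12.3, 19.8 and 28.6 CPM in the posterior libraries of wild-type. The raphe markers SLC6A4 and FEV were higher in the posterior brain of both genotypes in mean level.

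**Figure D5:**
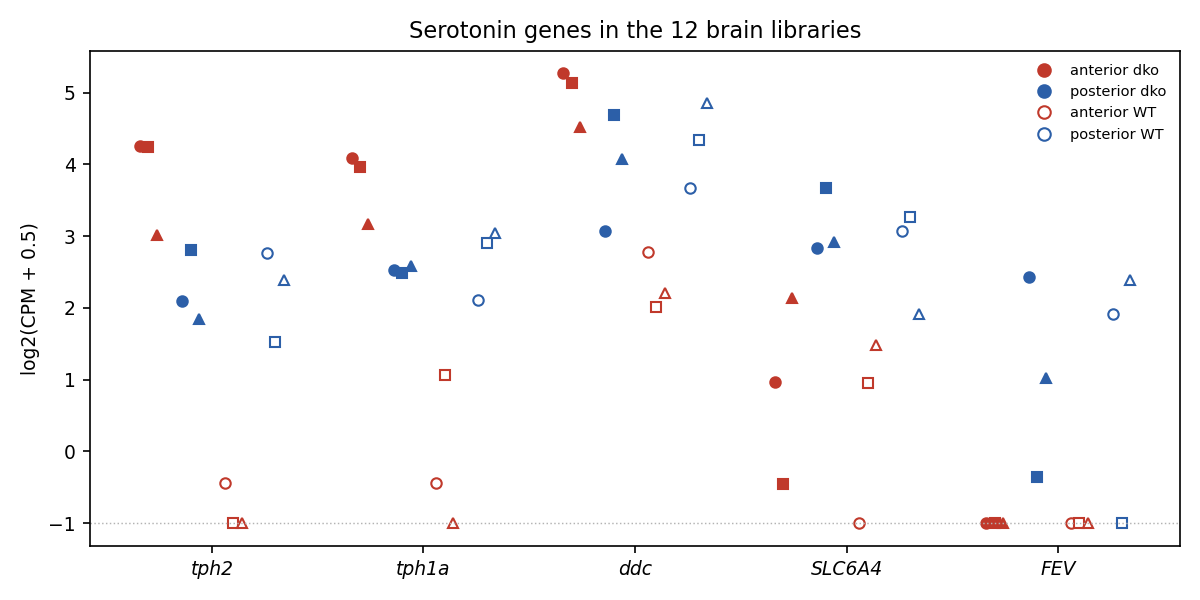
Level of tph2, tph1a, ddc, SLC6A4 and FEV in the 12 brain libraries. The vertical axis is log2(CPM + 0.5), red is anterior and blue posterior, filled symbols are opn4 dko and open symbols wild-type, circles, squares and triangles are replicates 1, 2 and 3 and the dotted line marks 0 counts; filled red symbols lie above filled blue ones for tph2 and tph1a, and open red symbols lie below open blue ones for tph2, tph1a and ddc.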

How the data were processed

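Polyadenylated RNA of 18 libraries was sequenced by the study as single reads of 100 bp. The authors deposited raw read counts of 31624 Ensembl genes, without normalisation or filter. Their commands map reads with HISAT (version not stated) to GRCz10 and count whole gene bodies of Ensembl release 86 with featureCounts, stranded and with a minimum mapping quality of 20, while the methods name NextGenMap. Intronic reads therefore count, and since the kit is not stated to mark strand, reads of overlapping or antisense genes cannot be told apart. Copies of a gene family may share reads. Tables of the authors' own comparisons hold fold changes and p-values, and none of these values was used, while 332 symbols were read from identifier columns of the study's tables.

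Counts of the 3 anterior and 3 posterior opn4 dko libraries were fitted in edgeR 4.0.16 (R 4.3.3) with TMM normalisation, filterByExpr (minimum count 10, minimum total 15), quasi-likelihood F-tests and a prior count of 0.125, with Benjamini-Hochberg adjustment over 15779 genes and an FDR below 0.05. The SE is the absolute log2 difference divided by the square root of F. A part with at most 3 counts in each library was set to 3 counts per library, and its fold is a lower bound. CPM used TMM sizes of the 12 brain libraries. The genotype difference of the region effect was tested in the same way over those 12 libraries (16848 genes). Replicates of a part differed by more than sampling noise (chi-square per degree of freedom 7.41 to 11.88).

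Genes were named from 34 lists (871 measured genes, of which 580 were tested), or, outside the lists, as the 12 largest log2 differences in each direction among called genes with a symbol, no overlap and no fewer than 10 counts in any library of the higher part. TYR, NR2E3 and genes not called were named to complete their lists. Some list members are counted but not reported here by name. The lists and the comparison were chosen with earlier results of these data known. Symbols were found for 26167 of the identifiers (82.74%), and 33 of 923 list entries matched none. No sequences are shown, since no sequence table of these genes was used.

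On simulated data, 200 genes changed by a log2 difference of 1 or 2 were recovered in 32% and 77.5% of cases in the comparison of the parts, with 4.48% and 4.32% false calls, and 0 genes were called with no change. In the comparison between genotypes, changes of 2 or 4 were recovered in 63% and 78%, with 7.35% and 3.7% false calls. The simulated counts held no lane effect and far fewer changed genes than were called here, so these rates do not cover lane. Alternatives were DESeq2 1.42.0, edgeR's exact test, RLE, upper quartile and actb1 scaling, other filters and thresholds, other sets of libraries, a replicate block and each library left out, and the lane term was added after seeing the data.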

Additional observations from a re-analysis of the deposited data

Results flagged for a closer look

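One result was singled out because the regional difference of a gene was not the same in the 2 genotypes. For tph2 the anterior minus posterior difference in opn4 dko exceeded that in wild-type by 7.30 on the log2 scale (adjusted p = 0.0244, edgeR's quasi-likelihood test over 16848 genes). All 3 anterior opn4 dko libraries lay above the 3 posterior ones, at 18.7, 18.5 and 7.56 against 3.78, 6.51 and 3.08 CPM, and all 3 wild-type anterior libraries lay below the posterior ones, at 0.236, 0 and 0 against 6.27, 2.38 and 4.76 CPM. The second serotonin enzyme gene tph1a had 114, 66 and 37 anterior and 28, 18 and 25 posterior counts in opn4 dko and 1, 10 and 0 and 14, 38 and 26 counts in wild-type, with a difference of 4.46 ± 0.96 that did not pass (adjusted p = 0.162). Both genotypes had the same lanes within each brain part, so a lane term could change the tph2 difference little. With lane as a term it was 7.28 (adjusted p = 0.0166). With the wild-type anterior libraries set to 3 counts, the tph2 difference was 4.58. The call was lost in several fits that left out 1 library, such as that without opn4 dko anterior replicate 1 (7.08, adjusted p = 0.252).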

How the results depend on the processing

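Of 3676 alternative values for 210 named genes, 3488 kept direction and side of the threshold, 156 lost the call, 30 gained one and 2 changed sign, which were POMC (0.38 with lane as a term) and asmt2 (0.21 without posterior replicate 2, and -0.36 at the lowest with another library left out). With lane as a term alone, 168 of the 210 were kept, 39 lost the call, 2 gained one and 1 changed sign. The pooled count includes a prior count of 2, which does not enter the test and changed no call. The 4795 genes called between the parts became 3159 with all 18 libraries fitted, 2742 with lane as a term, 3160 at an FDR of 0.01 and 2669 with an absolute log2 difference of at least 1, and were 3674 to 4813 when libraries were left out singly. Library sizes from actb1 reads moved the median log2 difference of all genes from -0.004 to 0.133, and 63.3% of the calls were then higher in the anterior brain (2195 against 1273) in place of 51.7%. With at least 10 counts in every library, which removes genes near 0 in one part, 96 of the 193 called named genes were called, and 13 pineal genes in place of 30. Left out singly, libraries gave 21 to 35 pineal genes higher in the anterior brain, and none higher in the posterior brain except NR2E3 without posterior replicate 1. The posterior share of the summed pineal CPM was then 16.9% to 26.3%. The 1 gene whose regional difference differed between genotypes became 0 at an FDR of 0.01 and with 10 counts in every library, 10 with DESeq2, 37 without a filter, 11 with actb1 sizes and 3 with lane as a term, and 0 to 6 with single libraries left out. For tph2 this difference was 7.24 with all 18 libraries, where it was not called, and 6.70 to 9.14 with single libraries left out. It could not be tested under the strict filter, and the exact test was not run for this comparison. With the replicate block, 5240 genes were called between the parts (33 pineal genes) and 10 differed between genotypes. Replicate numbers did not pair the samples by the rule used, since deviations of same-numbered anterior and posterior libraries correlated at 0.051, 0.088 and 0.055 over genes, although each sample correlated best with its own number. Except where stated, causes of these changes were not tested. At these depths a gene under 0.434 to 0.850 CPM is known only as a bound.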
